A study of Mus musculus with 5 samples.

Results

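Obox6, Obox3 and Obox5 of the oocyte-specific homeobox family, and Rhox1, Rhox5, Rhox6 and Rhox9 of the reproductive homeobox family on the X chromosome, were followed in Dicer-deficient and wild-type mouse embryonic stem (ES) cells. These 7 genes were taken by symbol, and a gene's signal was read from a probe set whose annotation names that gene alone. Of the 7, 5 had such a probe set, out of 19938 genes tested in all. Rhox5 is named by no annotated probe set, and Obox3 is named only on probe sets shared with other Obox genes. The set was put forward with results of this comparison known: Obox6 was chosen by its low signal in Dicer-deficient cells, and where a gene had more than 1 probe set, the brightest by its mean over the 5 arrays was selected. The values of Obox6 are therefore a description with no test, and the adjusted p-values of the other members are not independent support.

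The arrays came from 2 Dicer-deficient and 3 wild-type cultures, which the series' design text calls biological replicates. Dicer is the enzyme that releases mature microRNAs from their hairpin precursors. Both genotypes were grown asynchronously, without feeder cells, in serum and LIF medium mixed with N2B27 medium holding the 2i inhibitors. The Dicer allele, the parent lines and the number of clones are not given in the labels, so loss of Dicer and other differences between the lines cannot be told apart.

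Homeobox genes encode transcription factors that bind DNA through a homeodomain. In the mouse, Obox genes lie in a cluster on chromosome 7, are known from oocytes and cleavage-stage embryos, and take part in the first wave of transcription from the embryo's own genome. Rhox genes lie in a cluster on the X chromosome and are known from testis, ovary and placenta. Rhox6 and Rhox9 were first described as the placental homeobox genes Psx1 and Psx2, and DNA methylation is known to silence Rhox genes in embryonic tissue.

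Each array gave a normalized log2 signal for 35556 probe sets, with medians of 5.39 to 5.45 and lower quartiles of 4.14 to 4.18. Precision is limited by the small number of arrays. Dicer1 had signals of 7.2 and 6.84 in Dicer-deficient cells, against 8.84, 8.82 and 8.85 in wild-type cells. The ES cell marker Pou5f1 had 12.01 and 11.97 in Dicer-deficient cells, against 11.99, 11.83 and 11.63 in wild-type cells. Of 12 ES cell markers measured, 0 lay below the array median on all arrays. limma called 3 of the 12 lower and 0 higher at an adjusted p of 0.05, beside 8.6% of all genes called lower. The 3 were Tdgf1, Esrrb and Klf4, with log2 changes of -0.70, -0.72 and -0.95.

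Obox6 was far lower in Dicer-deficient cells, Rhox9 and Rhox6 rose, and Rhox1 and Obox5 did not pass the test. Of the 4 measured members other than Obox6, limma called 2 higher and 0 lower at an adjusted p of 0.05 (2 and 0 also at an unadjusted p under 0.05), where 17.1% of all genes were called in either direction, 8.48% higher and 8.6% lower. The values of the genotypes did not overlap for 2 of these 4, and for 39.9% of all genes. Since this contrast was known when the genes were chosen, nothing is read from these counts.

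**Figure D1:**
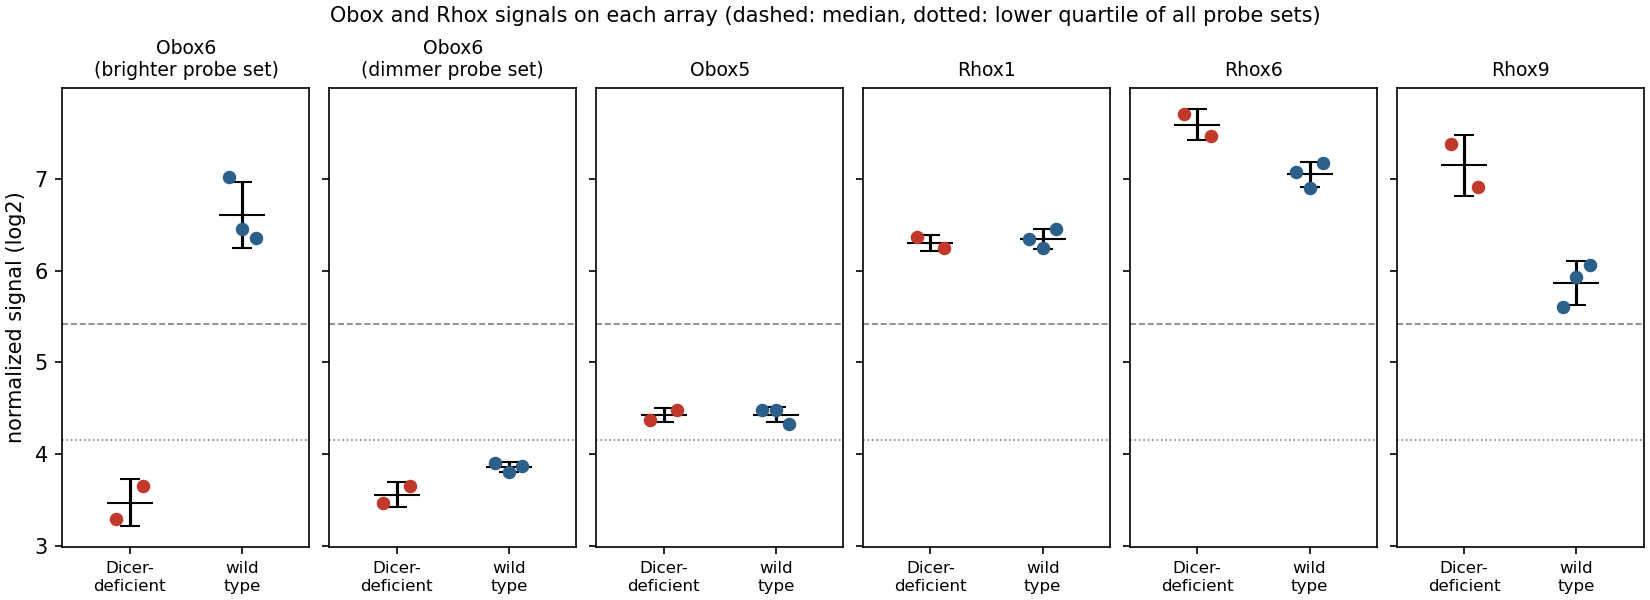
Normalized log2 signal (vertical axis) of each measured Obox and Rhox gene, with 2 Dicer-deficient arrays (red) left of 3 wild-type arrays (blue); points are arrays, bars the mean and SD. Obox6 on its brighter probe set lies below the lower quartile of all probe sets in Dicer-deficient cells and above the median in wild-type cells, while Rhox9 and Rhox6 are higher in Dicer-deficient cells.

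Obox6 is the member of its family closest to Crx and Crxos in gene order. Its signal was 3.29 and 3.65 in Dicer-deficient cells, against 7.02, 6.45 and 6.35 in wild-type cells. The groups stood 2.70 apart at their nearest values on the log2 scale, and both Dicer-deficient values were under the lower quartiles of all 5 arrays. The means were 3.47 ± 0.255 (SD, n = 2) in Dicer-deficient cells and 6.61 ± 0.361 (SD, n = 3) in wild-type cells. These signals differed by -3.14 on the log2 scale, a size that rests on a Dicer-deficient signal not shown to be above background and on the choice of probe set. No fold is given for that reason. Fewer cells with the transcript and less transcript per cell cannot be told apart in these bulk samples.

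The place of these signals on each array was read against all probe sets. Obox6 lay above 5.84% and 13.1% of probe sets on the Dicer-deficient arrays, against 71.4%, 64.9% and 63.5% on the wild-type arrays. A second reading used 1015 olfactory receptor genes, which are not expected to be active in ES cells. Obox6 exceeded 18.7% and 51.0% of them on the Dicer-deficient arrays, against 99.9%, 99.6% and 99.5% on the wild-type arrays. The Dicer-deficient signal of Obox6 thus lay within the range of genes of this kind. Probe sets respond unequally, so this places a signal and is no test of detection.

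**Figure D2:**
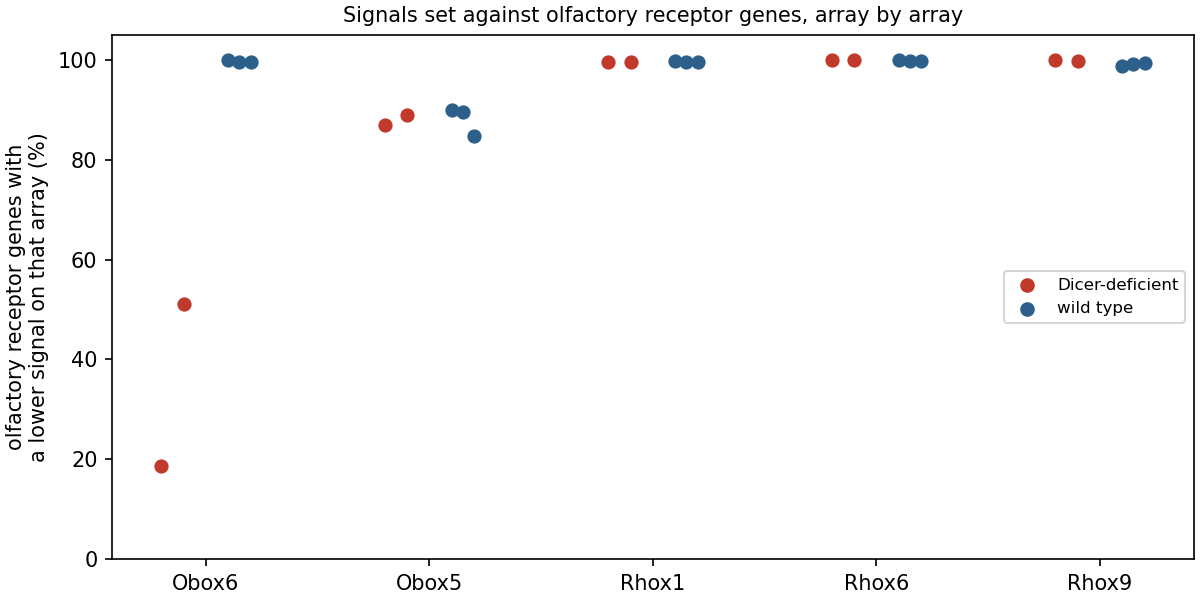
Share of 1015 olfactory receptor genes with a lower signal than the named gene on the same array (vertical axis, percent), Dicer-deficient arrays (red) left of wild-type arrays (blue). Obox6 stands at 18.7% and 51.0% on the Dicer-deficient arrays and at 99.5% or more on the wild-type arrays, and Rhox1, Rhox6 and Rhox9 stand at 98.8% or more on all 5 arrays.

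A second probe set also names Obox6 alone. Its mean over the 5 arrays was 3.74, against 5.35 for the probe set used, and this mean decided which was taken. It gave 3.46 and 3.65 in Dicer-deficient cells, against 3.9, 3.8 and 3.87 in wild-type cells. The groups did not overlap there either, but the log2 difference was -0.30, and all 5 values lay below the lower quartile of their arrays. The gene table also holds a pseudogene of Obox6, on chromosome 17. Whether the dimmer probe set reads that copy was not tested.

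Obox5 had signals of 4.37 and 4.48 in Dicer-deficient cells, against 4.48, 4.48 and 4.33 in wild-type cells. The values overlapped, and the log2 change was -0.01 with an interval of -0.21 to 0.20 (limma, adjusted p = 0.982). Obox5 exceeded between 84.7% and 89.8% of the olfactory receptor genes on the 5 arrays. Obox7, the other Obox gene alone on a probe set, had 3.63 and 3.4 in Dicer-deficient cells, against 3.12, 3.4 and 3.53 in wild-type cells (limma, adjusted p = 0.525).

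Obox3 could be read only together with its relatives. On 5 probe sets the annotation lists 5 Obox genes at once, namely Obox1, Obox2, Obox3, Obox5 and Obox7. Over these probe sets and all 5 arrays the signals ran from 3.38 to 3.66, below the lower quartile of every array. The log2 differences, Dicer-deficient minus wild type, ran from -0.01 to 0.07. Of the 5 value profiles 4 were distinct, so these probe sets are not separate measurements. The probe sets of the other Obox genes thus showed no difference like that of Obox6, and their signals were already low in wild-type cells.

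Rhox9 was the member with the largest rise. Its signal was 7.38 and 6.91 in Dicer-deficient cells, against 5.6, 5.93 and 6.06 in wild-type cells. Both Dicer-deficient values exceeded every wild-type value, by 0.85 or more on the log2 scale. The means were 7.14 ± 0.332 (SD, n = 2) in Dicer-deficient cells and 5.86 ± 0.237 (SD, n = 3) in wild-type cells, a 2.43-fold higher level (log2 change 1.28, SE 0.173, limma adjusted p = 0.00248). The change ranked as the 156th highest of 19938 genes. Without Dicer-deficient array 1 it was 1.05 with adjusted p = 0.0732, and without each other array the adjusted p lay between 0.0148 and 0.0364.

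Rhox6 rose less. Its signal was 7.71 and 7.47 in Dicer-deficient cells, against 7.07, 6.9 and 7.17 in wild-type cells. The groups did not overlap, but their nearest values were 0.30 apart, about as far as the wild-type arrays lay from each other (0.27). The level was 1.46-fold higher (log2 change 0.54, SE 0.112, limma adjusted p = 0.0149). This call was lost without Dicer-deficient array 1 (adjusted p = 0.176), Dicer-deficient array 2 (0.0739), wild-type array 1 (0.0652) or wild-type array 2 (0.0714). It was kept without wild-type array 3 (0.0301). For Rhox6 and Rhox9 alike, Dicer-deficient array 1 gave the higher value, by 0.24 for Rhox6 and by 0.47 for Rhox9. The interval of the change was 0.28 to 0.80 for Rhox6 and 0.88 to 1.68 for Rhox9; the difference between the changes was not tested.

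Rhox1, the first Rhox gene in gene order, had signals of 6.36 and 6.24 in Dicer-deficient cells, against 6.34, 6.24 and 6.45 in wild-type cells. The values overlapped, and the log2 change was -0.04 with an interval of -0.26 to 0.17 (limma, adjusted p = 0.843). Rhox1 exceeded between 99.5% and 99.7% of the olfactory receptor genes on the 5 arrays, so its signal, unlike that of Obox6 in Dicer-deficient cells, stood clear of those genes.

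The other Rhox genes alone on a probe set were Rhox8, Rhox10, Rhox11, Rhox12 and Rhox13, known mainly from testis or ovary. With Obox7 these made 6 further family genes. limma called 0 of the 6, beside 17.1% of all genes called, and 0 had an unadjusted p under 0.05. With so few genes, little can be read from that count. Their log2 changes ran from -0.25 for Rhox12 to 0.17 for Obox7, with adjusted p from 0.232 to 0.984. All 6 lay below the array median on every array, and 4 of them below the lower quartile. Rhox12 had 3.5 and 3.45 in Dicer-deficient cells, against 3.59, 3.63 and 3.95 in wild-type cells, values that did not overlap and did not pass the test. Rhox10 did not overlap either, with 3.32 and 3.39 in Dicer-deficient cells, against 3.3, 3.31 and 3.3 in wild-type cells. Over all genes, 39.9% did not overlap. At signals this low a difference may not be detectable.

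**Figure D3:**
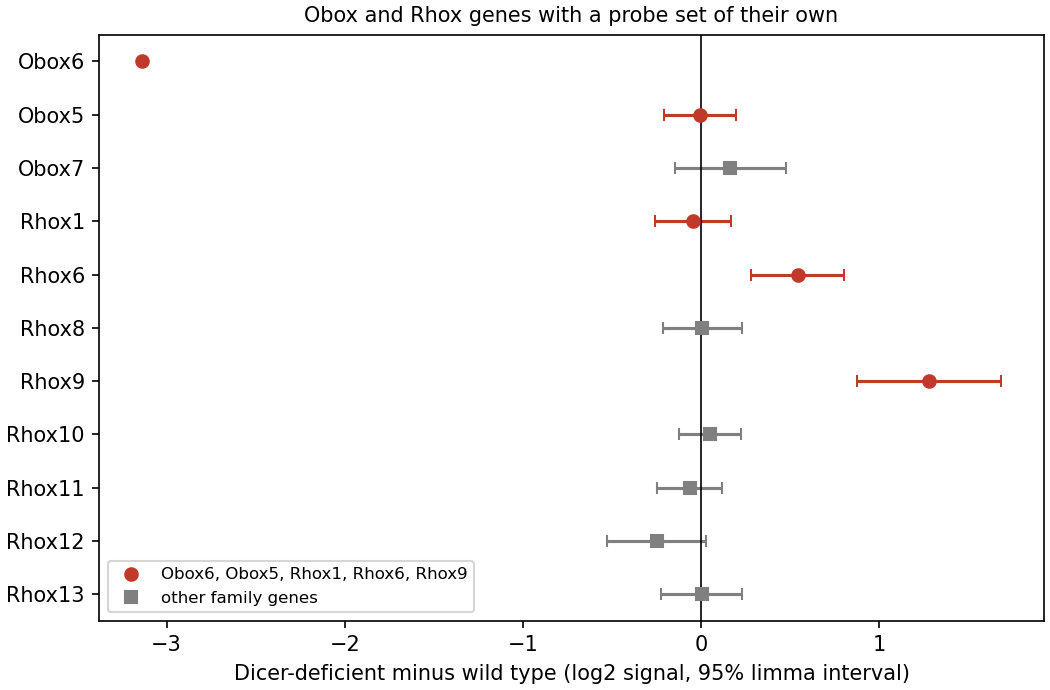
Difference between Dicer-deficient and wild-type cells (horizontal axis, log2 signal) for the 11 Obox and Rhox genes with a probe set of their own; points are limma's estimates and bars its 95% intervals, from 2 Dicer-deficient and 3 wild-type arrays, with no interval drawn for Obox6, which is described only. Obox6 lies at -3.14, Rhox9 at 1.28 and Rhox6 at 0.54, and the intervals of the other 8 genes include 0.

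Most of the genes around the members were not called. In gene order on the X chromosome, the genes Btg1b and Btg1c lie among the Rhox genes, and neither passed the test (limma, adjusted p = 0.645 and 0.608). Both had signals below the array median on every array. Of the 20 named genes that flank the Rhox genes, 1 was called higher and 2 lower, with a median log2 change of -0.045, beside 17.1% of all genes called and a median of 0.0075 over all genes. The called genes were the lysosomal membrane gene Lamp2, higher by 0.70, and Nkrf and Snora69, lower by 0.31 and 0.71. Each of these 3 calls was kept in only 1 of the 5 fits that left out an array, and no single fit kept all 3. Over those fits the log2 change ran from 0.43 to 0.97 for Lamp2, -0.35 to -0.29 for Nkrf and -1.06 to -0.36 for Snora69. On the whole X chromosome, 71 of 739 genes were called higher and 59 lower, with a median of 0.015. When only genes with a mean at or above the median of all values were kept, 12 of the 20 flanking genes remained. Of these 12, 1 was called higher and 3 lower, beside 1766 higher and 1895 lower among all 11171 genes kept.

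Around the Obox genes on chromosome 7, 1 of 20 flanking genes was called higher and 2 lower, with a median of -0.06, beside 17.1% of all genes called. Crx and Crxos, the homeobox genes next to Obox6, had log2 changes of 0.04 and -0.17 (limma, adjusted p = 0.863 and 0.317). Their signals were low on every array, from 4.3 to 4.5 for Crx and from 3.81 to 4.11 for Crxos. At such signals a fall may not be detectable. Selenow, a selenoprotein gene further along, fell to 6.99 and 7.15 in Dicer-deficient cells, against 8.41, 8.33 and 8.25 in wild-type cells (log2 change -1.26, adjusted p = 0.000184), and kept its call whichever array was left out. The DNA ligase gene Lig1 was lower by 0.38 and Ehd2, of membrane trafficking, higher by 0.51. Each of these calls was kept in only 1 of the 5 fits that left out an array, a different fit for each gene. Over those fits the log2 change ran from -0.45 to -0.34 for Lig1 and from 0.42 to 0.65 for Ehd2. On the whole of chromosome 7, 110 of 1734 genes were called higher and 124 lower. When only genes with a mean at or above the median of all values were kept, 8 of the 20 flanking genes remained. Of these 8, 0 were called higher and 3 lower, beside 1766 higher and 1895 lower among all 11171 genes kept.

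**Figure D4:**
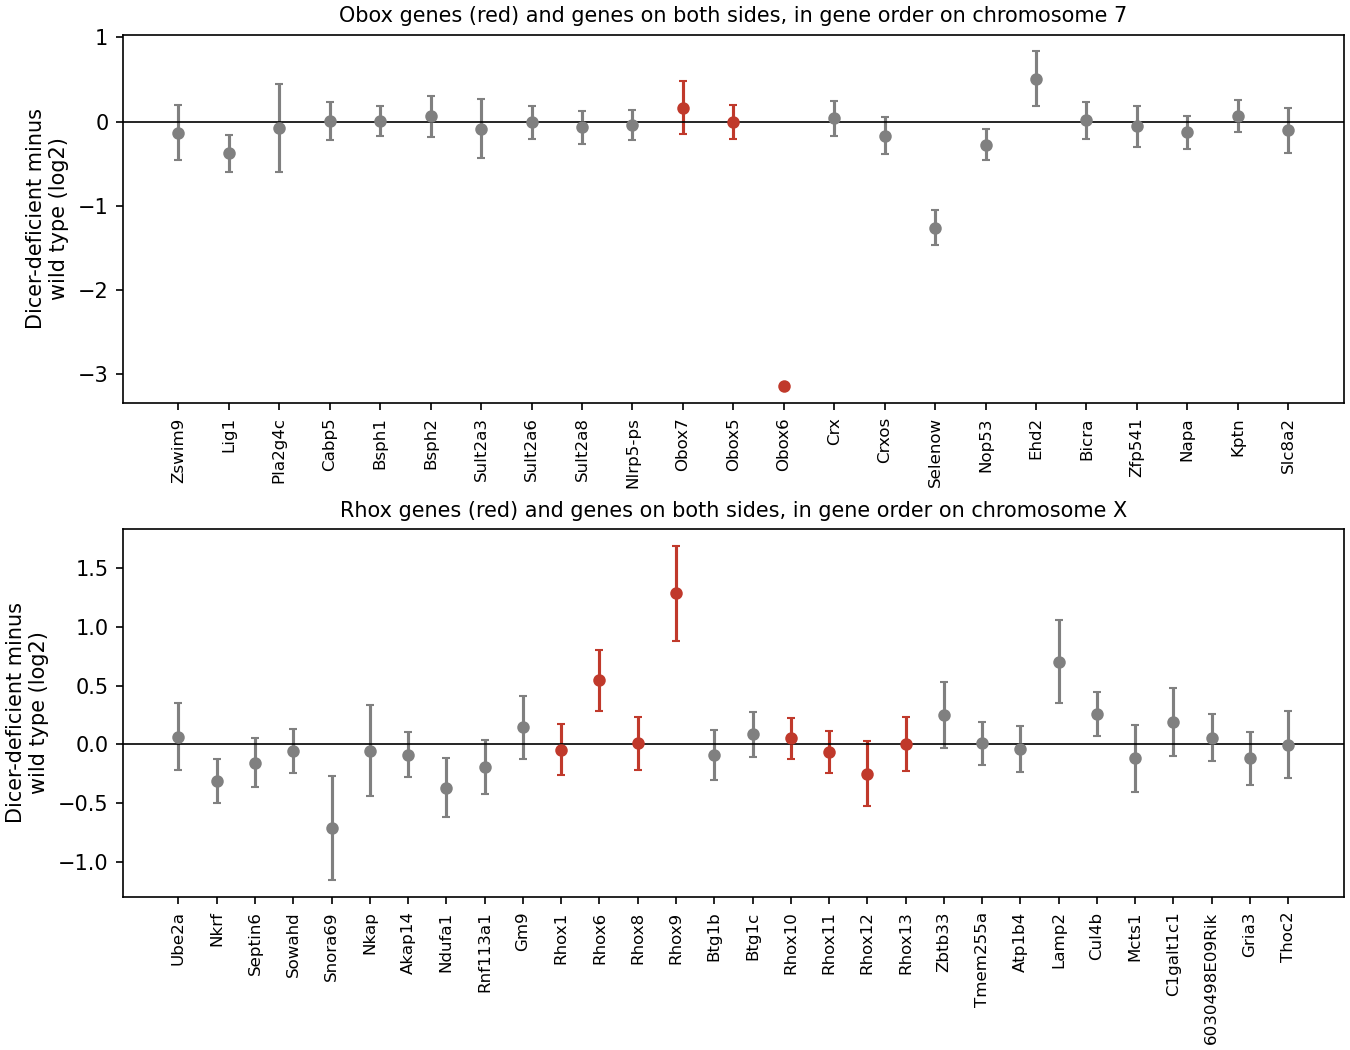
Difference between Dicer-deficient and wild-type cells (vertical axis, log2 signal, with limma's 95% intervals except for Obox6) for Obox genes on chromosome 7 and Rhox genes on the X chromosome (red) and for tested genes among and beside them (grey), in gene order. Obox6 at -3.14 stands beside Crx at 0.04 and Obox5 at -0.01, and Rhox9 at 1.28 beside Rhox8 at 0.01 and Btg1b at -0.09. The signals of Crx, Obox5, Rhox8 and Btg1b lay below the array median on every array, where a fall may not be detectable.

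Genes with the pattern most like each member were found by the root mean square difference of log2 signals over the 5 arrays, each gene centred on its own mean. For Obox6 they were Pla2g1b (0.288), a secreted phospholipase, Lin28a (0.299), which blocks let-7 maturation, and Rragb (0.302), a GTPase of amino acid sensing. For Rhox6 they were Whamm (0.0172), which promotes actin nucleation, Dnajc5b (0.0332), a cochaperone, and Catsperd (0.0366), a subunit of the sperm calcium channel. For Rhox9 they were Zbp1 (0.075), a nucleic acid sensor, Letmd1 (0.0967), a mitochondrial protein, and Glis3 (0.101), a zinc finger transcription factor. No other Obox or Rhox gene was among them. Over 5 arrays in 2 groups, genes with a difference of similar size between the genotypes come out as alike.

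Other homeobox genes of the oocyte and germ line were mostly at low signals. Of 10 listed, 7 were measured, and 6 of these lay below the array median on all arrays. The list's only call was Hesx1, which is known as a repressor of the early embryo and forebrain rather than from the oocyte or germ line. It was called lower, with 4.33 and 4.33 in Dicer-deficient cells, against 4.95, 4.81 and 5.07 in wild-type cells (log2 change -0.61, limma adjusted p = 0.00442). That call was lost without Dicer-deficient array 1 (adjusted p = 0.0846) or array 2 (0.0805). The other 6, which include the oocyte factors Nobox and Lhx8, had 0 calls in limma (0 also at an unadjusted p under 0.05), beside 17.1% of all genes called. The list's median was -0.03.

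Of 22 genes of the oocyte and early embryo, 2 rose and 1 fell in limma, with a median log2 change of 0.02, beside 17.1% of all genes called. Khdc3, a member of the maternal complex under the oocyte membrane, fell to 5.63 and 5.27 in Dicer-deficient cells, against 7.24, 7.35 and 7.09 in wild-type cells (log2 change -1.78, adjusted p = 0.000184). Zp3, an egg coat protein, rose 2.33-fold to 8.46 and 8.56 in Dicer-deficient cells, against 7.31, 7.16 and 7.4 in wild-type cells (adjusted p = 0.000256). Ooep, of the same complex as Khdc3, rose 1.47-fold (adjusted p = 0.0405), a call kept in 1 of the 5 fits that left out an array (adjusted p up to 0.258). Khdc3 and Zp3 kept their calls in all 5. Of 16 genes of the 2-cell stage, 10 were measured and limma called 0 (0 also at an unadjusted p under 0.05), with a median of 0.03 and 8 of the 10 below the array median on all arrays. The listed Zscan4c, Zscan4d and Zscan4f were not measured, and Zfp42 was also counted among the ES cell markers. These values therefore say little about the 2-cell stage.

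Markers of the placental lineage, where Rhox6 and Rhox9 are known, were set beside their rise. Of 13 trophoblast markers measured, 3 rose and 0 fell in limma (3 and 2 at an unadjusted p under 0.05), with a median log2 change of 0.03, beside 8.48% of all genes called higher and 8.6% lower. The keratin gene Krt8 rose 2.90-fold (limma, adjusted p = 0.000175) and the transcription factor gene Gata3 2.35-fold (adjusted p = 0.000177), both kept whichever array was left out. The summed linear signal of the list was 1223 to 1392 on the Dicer-deficient arrays, against 891.3 to 1010 on the wild-type arrays. Without Krt8 and Gata3, the sum over the other 11 markers overlapped, at 698 to 783.2 on the Dicer-deficient arrays, against 695.7 to 809.1 on the wild-type arrays. Krt8 and Gata3 had the largest rises of the list, so leaving them out favours overlap, and the overlap is no test of the other markers. Such sums add probe sets that respond unequally. Krt18 rose 1.40-fold (adjusted p = 0.028, and up to 0.258 with an array left out). The defining factors Cdx2 and Elf5 had log2 changes of 0.06 and 0.06, and Eomes had -0.49 (adjusted p = 0.764, 0.746 and 0.0977). Ascl2, also on the list, had -0.48 (limma, adjusted p = 0.0523). The values of Eomes and Ascl2 were lower in Dicer-deficient cells with no overlap between the genotypes. The part of these markers in the rise of Rhox6 and Rhox9 was not tested.

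Genes silenced by DNA methylation in somatic cells, a class that Rhox genes share, were followed as a list: of 22 measured, 1 rose and 3 fell, with a median of -0.04, beside 17.1% of all genes called. The fit without wild-type array 3 also gave 4 calls, 1 higher and 3 lower, not all of the same genes. The list's 4 calls came to 1 without Dicer-deficient array 1, 0 without array 2, and 2 and 1 without wild-type arrays 1 and 2. Cyct, a testis cytochrome c, fell by 1.21 on the log2 scale (limma, adjusted p = 0.00207, and 0.0739 without Dicer-deficient array 2). Mael and Stk31 were the others called lower and Rpl10l was called higher, with adjusted p up to 0.219, 0.249 and 0.324 as an array was left out. Among 14 enzymes and partners of DNA methylation, 3 rose and 3 fell, with a median of -0.06, beside 8.48% of all genes called higher and 8.6% lower. The fit without wild-type array 3 also gave 6 calls, 2 higher and 4 lower, not all of the same genes. The list's 6 calls came to 0 without Dicer-deficient array 1, 1 without array 2, and 2 without wild-type array 1 or 2. The cofactor gene Dnmt3l fell by 0.85 (adjusted p = 0.0369), the methyltransferase gene Dnmt3b rose by 0.54 (0.0416), and the histone methyltransferase genes Ehmt2 and Setdb1 rose by 0.61 and 0.48 (0.00585 and 0.00555). The others called were Uhrf1, the partner that guides Dnmt1, and Hells, a chromatin remodeller, lower by 0.43 and 0.48 (0.0126 and 0.0154) and kept in 1 of the 5 fits that left out an array. Dnmt3l, Dnmt3b, Ehmt2 and Setdb1 each lost its call when Dicer-deficient array 1 was left out, with adjusted p from 0.0611 to 0.278, and none kept it in more than 3 of the 5 fits that left out an array. The methyltransferase genes Dnmt1 and Dnmt3a had changes of 0.00 and -0.37 (adjusted p = 1 and 0.067).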

How the data were processed

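Each of the 5 samples of asynchronous mouse ES cells was hybridised to 1 Affymetrix array. The authors deposited log2 signals, already normalized, of 35556 probe sets. The background correction, probe summary, normalization and log base are not given in the sources used here, and base 2 was read from the range of the values. Arrays were grouped by their titles. Probe sets were named through the platform annotation: 21789 had 1 symbol, 1621 several and 12146 none. A gene with several probe sets was represented by its brightest, by the mean over all arrays, which gave 19938 genes. Of these, 19856 were found in a gene table of GRCm38.p6, used for chromosomes and gene order. No coordinates are printed, since the annotation names no build.

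The values were compared, Dicer-deficient minus wild type, with limma (lmFit and eBayes), Benjamini-Hochberg adjustment over 19938 genes and a threshold of 0.05. Residual degrees of freedom were 3 and prior ones 4.54, and the fit was tested on simulated data. Intervals are limma's 95% ones, SEs its moderated ones and SDs between arrays. An exact permutation of 2 against 3 arrays cannot reach 0.05, so none is given. The members, the gene lists and the rules were chosen with earlier results of these data known. The genes named are the members, all other Obox and Rhox genes alone on a probe set, at most 4 called genes a list with the largest change, called neighbours among the 10 named genes on each side, Dicer1, and the 3 genes of most like pattern for Obox6, Rhox6 and Rhox9. Other genes named were chosen after their values were seen. Olfactory receptor genes were added after seeing the data. Alternatives were median centring, a further quantile normalization, array weights, a filter on low values, robust moderation, an intensity trend, blocking on the replicate number, averaging the probe sets of a gene, and fits that drop 1 array at a time. R 4.3.3, limma 3.58.1, Python 3.11.15, pandas 2.3.3, numpy 2.4.6 and matplotlib 3.10.9 were used.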

Additional observations from a re-analysis of the deposited data

How the results depend on the processing

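Rhox6 and Rhox9 stayed higher in Dicer-deficient cells under every alternative. Obox6 stayed lower under every alternative that held it, but it was chosen by this fall on the same arrays, so that is no support. Among the 4 tested members, which leave out Obox6, 2 were called, and 0 to 2 as each array was left out: 0 without Dicer-deficient array 1, and 1 without Dicer-deficient array 2 or wild-type array 1 or 2. Over all genes 3404 calls were made, 973 to 2956 with an array left out and 894 with the replicate number as a block. Same-numbered arrays were not paired by the labels, and their deviations from the group means correlated at 0.0492 and 0.00528. With the block, 1 of these members was called, and Rhox9 had adjusted p = 0.0773. Wild-type array 3 has no same-numbered partner, so the block compares 2 Dicer-deficient with 2 wild-type arrays. Its changes equal those of the fit without wild-type array 3, and its smaller number of calls is no measure of pairing. Array weights gave 4247 calls over all genes. The other probe set of Obox6, added after seeing the data, gave -0.30, and the mean of its probe sets -1.72. The filter on low values leaves out Obox6 and Obox5. The changes of Rhox1 and Obox5 crossed 0, between -0.10 and 0.02 and between -0.06 and 0.05. Of the genes around the Rhox genes 3 were called, 5 after another quantile normalization and 0 with the block. Among the trophoblast markers 3 were called, all higher. With the filter 5 were called and with array weights 5, in both cases 3 higher and 2 lower. Among the DNA methylation enzymes and partners 6 were called, 10 with the filter and 0 with the block. With 1 array left in the Dicer-deficient group, its spread is assumed to be that of the wild-type arrays. Signal over background was not measured here, which limits every value below the array median.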

Other observations

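Of 10 primordial germ cell markers, which mark a lineage in which Rhox genes are known, 1 fell and 0 rose in limma (2 and 1 at an unadjusted p under 0.05), with a median log2 change of -0.05. Beside this list and those that follow, 8.48% of all genes were called higher and 8.6% lower. The receptor gene Kit had 7.64 and 7.03 in Dicer-deficient cells, against 8.94, 8.87 and 8.72 in wild-type cells (log2 change -1.51, adjusted p = 0.0011), and kept its call whichever array was left out. Dazl, which marks committed germ cells, had a change of -0.18 and values that overlapped between the genotypes. Of 14 markers of Sertoli and other testis somatic cells, 0 rose and 1 fell (1 and 1 at an unadjusted p under 0.05), with a median of -0.03. That gene was Clu (adjusted p = 0.0181, and up to 0.151 with an array left out). Among 12 ES cell markers 3 fell, namely Tdgf1, Esrrb and Klf4, with a median of 0.05. Tdgf1 kept its call whichever array was left out, Esrrb lost it without Dicer-deficient array 2 (adjusted p = 0.0914) or wild-type array 2 (0.0535), and Klf4 kept it in 1 of the 5 fits. Of 10 feeder fibroblast markers, 1 rose, the intermediate filament gene Vim, with a median of -0.01. The summed linear signal of these markers was 4175 to 5089 on the Dicer-deficient arrays, against 2585 to 2949 on the wild-type arrays. Without Vim it was 383.7 to 405.5 on the Dicer-deficient arrays, against 367 to 427.3 on the wild-type arrays. Since Vim was the only called gene of the list, that overlap is no test of the other markers. The call of Vim was lost without Dicer-deficient array 2 (adjusted p = 0.0564).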
